A study of Homo sapiens with 4 samples.

Results

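ELF5 binding was examined here at clustered protocadherin genes and at clusters of olfactory receptor genes, as peaks of an ELF5 ChIP-seq list in T47D breast epithelial cells. A peak was a member when its summit lay in 1 of 4 windows on hg19. The windows were set by position and not by any measured value, though earlier results of these data were known. The protocadherin window covered the alpha, beta and gamma clusters in band 5q31.3 (chr5:140160001-140900000). The olfactory windows lay in 1q44 (chr1:247900001-248850000), in 11p15.4 (chr11:4380001-5200000) and across bands 11q11 and 11q12.1 (chr11:55000001-56600000). The windows held 105 of the 115384 peaks in the list, 70 in the protocadherin window and 35 in the olfactory windows together.

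T47D is an established human luminal A breast cancer line, grown here without treatment in RPMI medium with 10% serum and insulin. ELF5, an ETS factor that drives the milk-secreting fate of mammary epithelium, was immunoprecipitated in 3 replicates, and 1 input sample was sequenced; every sample came from the same untreated line. The data were 1 peak list, with no columns for single replicates, so errors given here are counting errors only and no condition could be compared with another. Each peak had the authors' fold enrichment over local background, and peaks in the highest 10% of the list by fold, at 11.99 or more, are called strong.

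Clustered protocadherins are cadherin-type adhesion proteins best known from neurons, where each cell uses a small choice of them and so carries its own surface identity. In the alpha and gamma clusters each variable exon has its own promoter and is spliced to shared constant exons, whereas the beta genes stand alone. Olfactory receptors are G-protein-coupled receptors of the nasal sensory neurons, where a cell expresses a single receptor gene and the rest of the family stays silent. ETS factors such as ELF5 bind DNA around a GGAA core, often preceded by CC.

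The order of genes in the RefSeq table of GRCh38.p14 placed 53 clustered protocadherin genes in a single stretch of 55 protein-coding genes on chromosome 5, alpha before beta before gamma. The 2 others, SLC25A2, a mitochondrial carrier, and TAF7, a subunit of the general transcription factor TFIID, lay between PCDHB15 and PCDHGA1. The stretch was bounded by ZMAT2 and DIAPH1. On chromosome 1 the longest unbroken run of olfactory receptor genes held 31 genes, from OR2W3 to OR14I1, between TRIM58 and LYPD8. A run of 11, from OR2C3 to OR11L1, lay on the other side of TRIM58. On chromosome 11 the longest run also held 31, from OR5W2 to OR5AK2, between TRIM51 and LRRC55. A run of 18 from OR52N4 to OR52W1 lay between TRIM22 and C11orf42, and a run of 16 from OR51F1 to OR51V1 between MMP26 and HBB. The table is on another build than the peaks, so which peak lies at which gene was not analysed here. Genes of other families, such as TAF7 and TRIM58, lay between family members in this order. Peaks are thus called protocadherin or olfactory by their window only, and any of them may lie at another gene.

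The gene families differed in promoter sequence. RefSeq gave a window of 300 bases around the start for 47 of the 53 protocadherin genes and for 186 of the 232 olfactory receptor genes of chromosomes 1 and 11, inside or outside the windows above. CCGGAA, the GGAA core preceded by CC, is called the motif here and was counted on either strand. It stood in 4 of the 47 protocadherin promoters (8.51%), in 1 of the 186 olfactory receptor promoters (0.538%), and in 22.9% of 15842 protein-coding promoters. The matches are shown because they are those found in the promoters searched, with the motif in capitals, read 5′ to 3′ on the strand of the gene. The match in OR5D18 reads as the motif on both strands, with the copies overlapping.
PCDHA5: tcgctggacaCCGGAAggtttttctc
PCDHB1: acctaactctCCGGAAtgagaacata
PCDHB14: gtttcgaatgTTCCGGatgtatttat
PCDHGB2: tctgccatccCCGGAAggcttattcc
OR5D18: ctcatagattCCGGAAgagatatttg
The GGAA core alone did not separate the families: it stood in 97.9% of the protocadherin, 97.8% of the olfactory receptor and 95.1% of all protein-coding promoters. GGAAG, the core followed by G, stood in 66.0% of the protocadherin, 55.4% of the olfactory receptor and 74.1% of all protein-coding promoters. A match is a run of letters and not a binding site.

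A promoter from among those with the most GGAA cores in each family shows how such promoters read. PCDHA4 came first by symbol among 5 protocadherins with 7 cores in the 300 bases, the others being PCDHAC2, PCDHB7, PCDHGB2 and PCDHGC3, and OR6A2 had 9. Both printed stretches are the 250 bases before the start, with GGAA or its reverse complement TTCC in capitals. PCDHA4, an alpha protocadherin, lay on the plus strand at chr5:140806818-140807067 of GRCh38.p14, and OR6A2, an olfactory receptor gene of chromosome 11, on the minus strand at chr11:6799690-6799939 of the same build. These positions cannot be set beside the hg19 positions of the peaks.
PCDHA4: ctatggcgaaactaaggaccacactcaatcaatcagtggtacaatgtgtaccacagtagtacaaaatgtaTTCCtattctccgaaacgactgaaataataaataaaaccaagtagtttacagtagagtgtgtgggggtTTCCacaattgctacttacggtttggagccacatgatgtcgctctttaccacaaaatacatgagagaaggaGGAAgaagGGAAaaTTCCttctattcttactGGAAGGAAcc
OR6A2: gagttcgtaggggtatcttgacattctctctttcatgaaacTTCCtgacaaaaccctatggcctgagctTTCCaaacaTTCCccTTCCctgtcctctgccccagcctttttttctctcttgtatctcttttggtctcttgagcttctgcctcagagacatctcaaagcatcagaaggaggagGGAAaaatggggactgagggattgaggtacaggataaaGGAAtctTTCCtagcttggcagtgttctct
PCDHA4 held 7 cores and 5 CpG pairs in this stretch, and OR6A2 held 7 of its 9 cores and 1 CpG pair.

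CpG pairs, the sites of DNA methylation, told the families apart more clearly than base composition did. The median number per promoter was 7 in the protocadherins (interquartile range 5 to 10), 1 in the olfactory receptors (1 to 2) and 22 over all protein-coding promoters (8 to 32). The motif CCGGAA holds a CpG pair itself, so its shares are not independent of these counts. The median share of G and C was 39.7% in the protocadherins and 37.3% in the olfactory receptors, against 62.7% over all. Within the protocadherins, the 4 C-type genes with a window, which lie nearest the constant exons, had 27 (PCDHAC1), 23 (PCDHGC4), 18 (PCDHGC3) and 15 (PCDHAC2). The highest count outside the C-type was 16, in PCDHGB6. The lowest protocadherin count, 2, was that of PCDHGA4. Among the olfactory receptors OR2L13 had 24 and OR52N2 had 14.

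**Figure D1:**
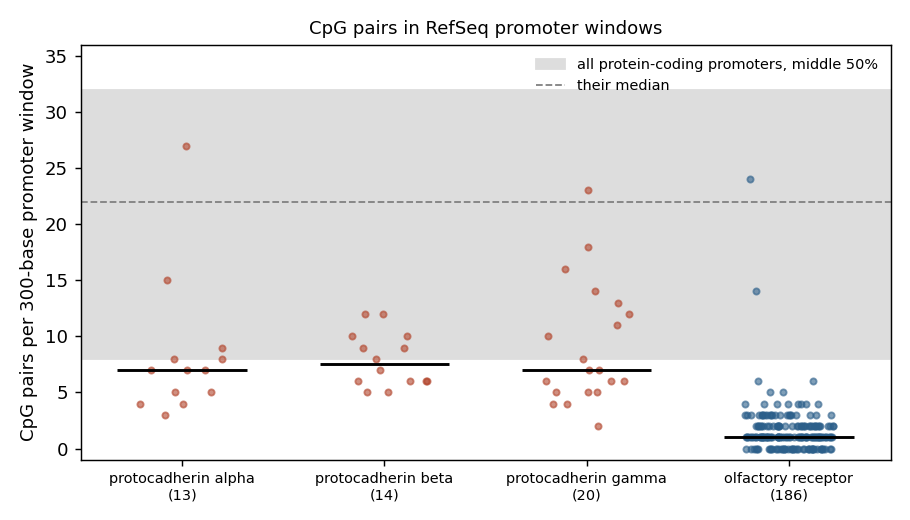
CpG pairs (vertical axis) in the 300-base RefSeq promoter window of each gene (points), for 13 alpha, 14 beta and 20 gamma protocadherin and 186 olfactory receptor genes; black lines are family medians, and the grey band is the middle 50% of all protein-coding promoters. The medians are 7, 7.5 and 7 in the protocadherin families and 1 in the olfactory receptors, against 22 over all promoters.

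ELF5 peaks were dense over the protocadherins and sparse over the olfactory receptors. The protocadherin window held 70 peaks in 0.74 Mb, or 94.6 per Mb (exact Poisson 95% interval 73.7 to 119.5). The 3 olfactory windows held 35 peaks in 3.37 Mb, or 10.4 per Mb (7.23 to 14.4). The chromosomes 1 to 22 and X held 37.99 per Mb, so the families lay on opposite sides of the list's density. The ratio of protocadherin to olfactory density was 9.11 (exact 95% interval 5.99 to 14.1; exact binomial test, two-sided, p = 7.09e-28, adjusted p = 6.38e-27 over 9 tests). Neighbouring peaks are not independent, so these p-values cover counting only. Joining each summit to the next one within 12500 bp left 18 sites against 31 and a ratio of 2.64 (1.39 to 4.88; exact binomial p = 0.00218). Such chains can be longer than 12500 bp, and the largest protocadherin site joined 18 peaks.

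Each olfactory window was sparser than the protocadherin window, by a factor that differed from window to window. The 1q44 window held 16 peaks in 0.95 Mb, or 16.8 per Mb (9.63 to 27.4), and the protocadherin density was 5.62 times this (3.23 to 10.4; exact binomial, adjusted p = 2.22e-12). The 11q11-q12.1 window held 16 peaks in 1.6 Mb, or 10.0 per Mb (5.72 to 16.2), for a ratio of 9.46 (5.44 to 17.4; exact binomial, adjusted p = 1.11e-20). The 11p15.4 window held 3 peaks in 0.82 Mb, or 3.66 per Mb (0.754 to 10.7), for a ratio of 25.9 (8.49 to 128; exact binomial, adjusted p = 6.11e-19). The intervals of these 3 windows overlap each other, which does not test their order, and the windows were not compared with each other.

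Placed among stretches of the same length along the chromosomes, the protocadherin window was in the upper part of the range and 11p15.4 in the lower. Of 3703 stretches of 0.74 Mb with at least 1 peak, 12.2% held more peaks than the protocadherin window, and the median stretch held 15. Of stretches of 0.82 Mb with a peak, 8.60% held fewer than the 3 peaks of the 11p15.4 window, at a median of 16. For 11q11-q12.1 the share with fewer peaks was 26.8%, and for 1q44 it was 43.3%. The 1q44 window was therefore close to the middle of such stretches.

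**Figure D2:**
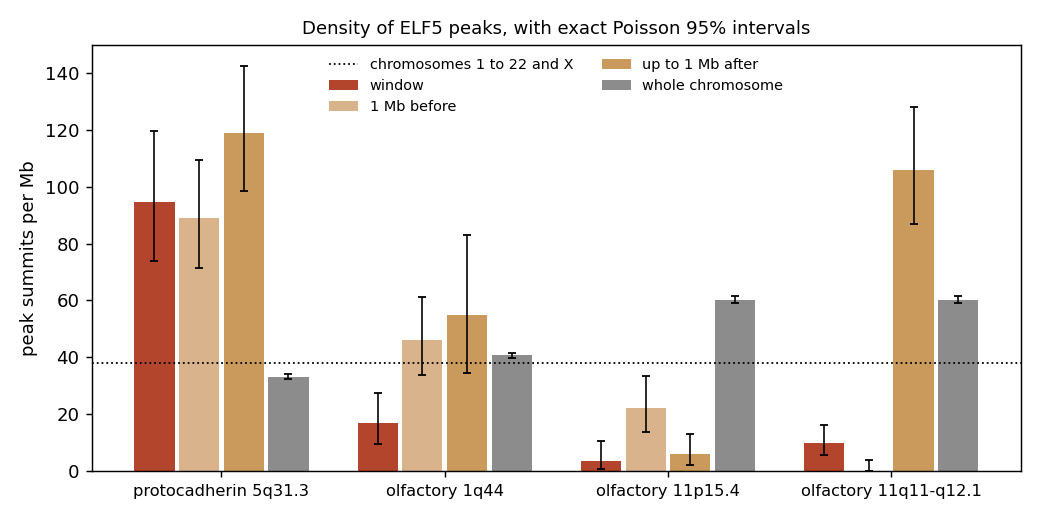
Peak summits per Mb (vertical axis) in each window, in the 1 Mb before it, in up to 1 Mb after it and on its whole chromosome; error bars are exact Poisson 95% intervals and the dotted line is the density over chromosomes 1 to 22 and X. The protocadherin window, at 94.6 per Mb, stands between its flanks at 89.0 and 119 per Mb, while the 1q44 window, at 16.8, lies below flanks at 46.0 and 54.9.

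The high protocadherin density was shared by the surrounding DNA. The 1 Mb before the window held 89 peaks and the 1 Mb after it 119, and the ratio of the window to both flanks was 0.910 (exact 95% interval 0.684 to 1.20; exact binomial, adjusted p = 0.611). A difference larger than this interval was thus not seen, and smaller ones could not be resolved at this count. The whole of band 5q31.3 held 60.6 peaks per Mb and chromosome 5 held 33.2.

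With all peaks counted singly, each olfactory window held fewer peaks per Mb than its flanks pooled. The gene order above placed further runs of olfactory receptor genes on both chromosomes. Which of these genes lie in the flanks on hg19 was not analysed, so the ratios do not set olfactory against other DNA. In 1q44 the flanks held 68 peaks in 1.40 Mb, cut short by the end of chromosome 1, and the window-to-flank ratio was 0.347 (0.188 to 0.605; exact binomial, adjusted p = 7.12e-05). In 11p15.4 the flanks held 28 peaks in 2 Mb, 22 before and 6 after, and the ratio was 0.261 (0.0508 to 0.846; exact binomial, adjusted p = 0.0211). In 11q11-q12.1 the ratio was 0.189 (0.104 to 0.321; exact binomial, adjusted p = 3.43e-13). Its flanks were unlike each other. The 1 Mb before, in the centromeric band 11q11, held 0 peaks (exact Poisson 95% interval up to 3.69 per Mb), and the 1 Mb after held 106. How much of the centromeric flank could hold a peak was not analysed here, so its 0 cannot be set against the window. Its whole length still enters the pooled ratios of 11q11-q12.1. With summits within 12500 bp counted as 1 site, no olfactory window passed the threshold against its flanks: the ratios were 0.688 in 1q44 (exact binomial p = 0.284), 0.430 in 11p15.4 (p = 0.220) and 1.09 in 11q11-q12.1 (p = 0.855). For 11p15.4 only 2 of 7 alternatives kept the call. It was also lost with summits within 1 kb joined (ratio 0.348, exact binomial p = 0.112), in the highest 50% of folds (0.385, p = 0.157), for strong peaks (0 in the window, p = 0.191) and over a background found in both families (0.348, p = 0.112). For strong peaks alone, the 11q11-q12.1 ratio was 0.139 (exact binomial p = 0.0504).

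Inside the protocadherin window the peaks gathered towards the ends. In 10 equal bins of 74 kb, in order of position, the counts were 12, 6, 1, 4, 3, 8, 1, 12, 13 and 10. The eighth bin, from 140678001 to 140752000, held 3 strong peaks, more than any other bin of this window. The longest stretch without a summit was 62.1 kb, from 140621601 to 140683688. The median distance from a summit to the nearest other summit was 1.89 kb, close to the 1.56 kb of chromosomes 1 to 22 and X. Summits stood in 54.1% of the 10 kb bins of the window.

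The olfactory peaks stood mostly alone. The median distance to the nearest other summit was 23.7 kb in 1q44, 28.8 kb in 11p15.4 and 57.6 kb in 11q11-q12.1. Summits stood in 15.8%, 3.66% and 10.0% of their 10 kb bins. In 11p15.4 all 3 peaks lay at or before 4658267, and the remaining 542 kb, up to the end of the window at 5200000, held none. That stretch was 66.1% of the window. The longest empty stretch was 141 kb in 1q44 and 201 kb in 11q11-q12.1.

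**Figure D3:**
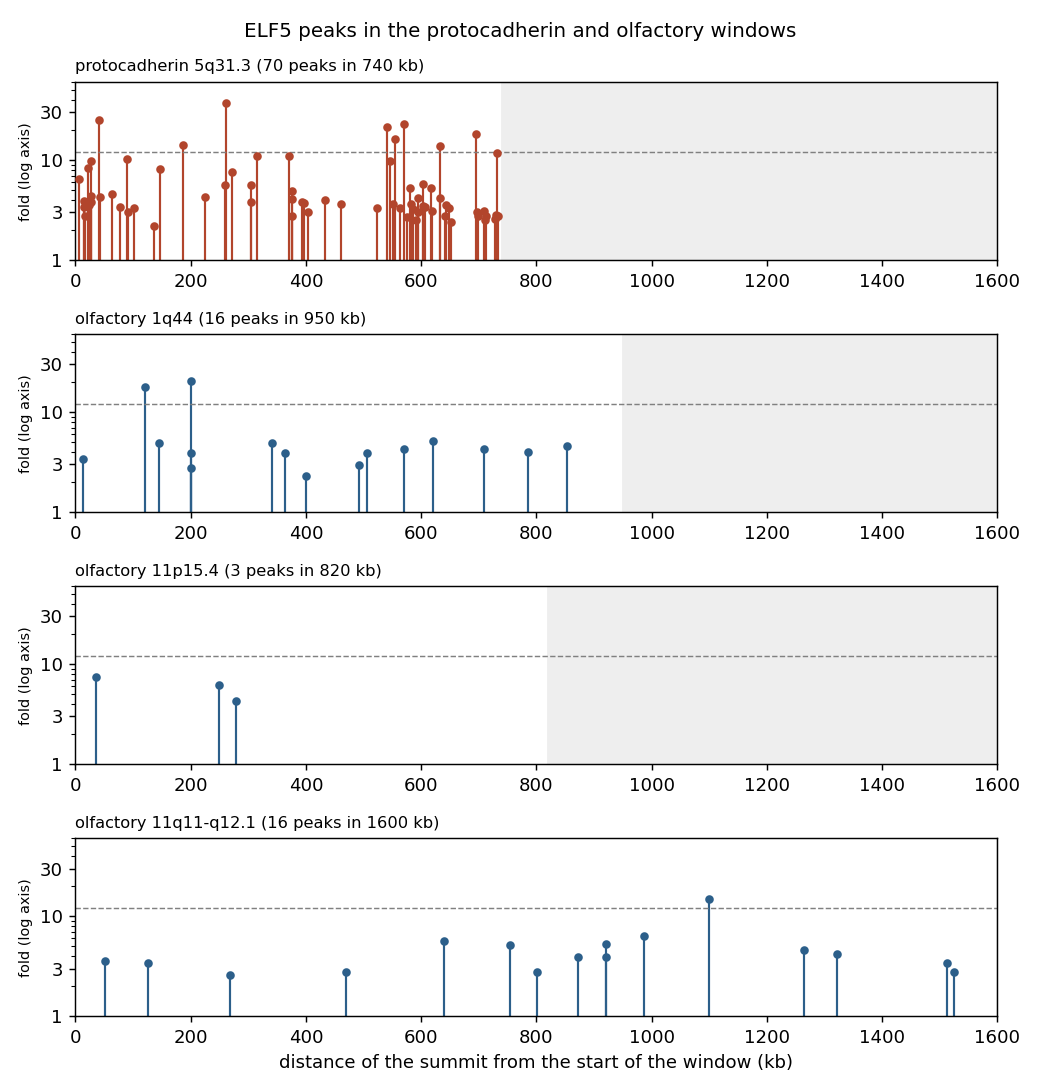
Fold enrichment of every member peak (vertical log axis) against the distance of its summit from the start of its window in kb; each line with a point is 1 peak, the dashed line is the strong threshold of 11.99 and grey areas lie beyond the window's end. The 70 protocadherin peaks crowd towards both ends of a 740 kb window, with 8 at or above the dashed line, and 3 of the 35 olfactory peaks reach it.

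The strongest protocadherin peak, at chr5:140420361-140421036, had a fold of 37.4 (95% counting interval 31.4 to 44.1) from a recovered pileup of 137 fragments over a background of 2.36. The peak at chr5:140201121-140201838 followed with a fold of 25.4 (20.2 to 31.5), and that at chr5:140729503-140730057 with 23.2 (19.7 to 27.2). The interval of the strongest met that of the second only at its edge and lay above that of the third, while the second and the third overlapped. The fourth, at chr5:140699824-140700728, had a fold of 21.5 (18.5 to 24.9) and the largest pileup of all members, 179 fragments over a background of 6.62. These intervals cover counting error only and hold the background fixed. Whether any of these peaks lies at TAF7 or SLC25A2, and not at a protocadherin gene, was not analysed.

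The other strong protocadherin peaks were weaker and spread along the window. The peak at chr5:140855235-140856441 had a fold of 18.2, that at chr5:140713833-140714232 had 16.4, that at chr5:140345824-140346528 had 14.1 and that at chr5:140792838-140793565 had 13.8. The next, at chr5:140891723-140892256, fell just under the strong threshold with a fold of 11.69. Peaks at chr5:140474071-140474549 and chr5:140530283-140530549 shared the same fold, 10.9. The broadest peak, 1364 bp at chr5:140305609-140306972, had a fold of 8.09 (5.82 to 10.98), so the broadest peak was not among the strongest.

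In 1q44 a pair of peaks stood above the rest. The peak at chr1:248100160-248100543 had a fold of 20.5 (15.9 to 25.9) and had neighbours with folds of 3.89 and 2.75 whose summits lay 554 bp and 240 bp away. The broadest, 929 bp at chr1:248020376-248021304, had a fold of 17.7 (13.5 to 22.9). The third, at chr1:248520546-248520817, had a fold of 5.21 (3.07 to 8.36). The other 13 peaks of the window thus had folds of at most 4.92.

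The windows on chromosome 11 held a single strong peak. It lay in 11q11-q12.1 at chr11:56099377-56099966, was the broadest there at 590 bp, and had a fold of 14.8 (11.3 to 19.1). The next had folds of 6.40 (4.04 to 9.70) at chr11:55987325-55987517 and 5.71 (3.75 to 8.37) at chr11:55640234-55640406. In 11p15.4 the 3 peaks had folds of 7.43 (5.03 to 10.6) at chr11:4414630-4415181, 6.15 (4.001 to 9.09) at chr11:4629006-4629600 and 4.28 (2.43 to 7.08) at chr11:4658222-4658360. The second of these was the broadest, at 595 bp. The intervals of these 3 overlap.

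Where peaks were present, their folds had nearby medians in both families. The median fold was 3.85 in the protocadherin window (interquartile range 3.11 to 6.32), 4.24 in the olfactory windows (3.41 to 5.21) and 3.66 in the whole list (2.98 to 5.50). Strong peaks made up 8 of 70 in the protocadherin window, or 11.4% (exact 95% interval 5.07 to 21.3), and 3 of 35 in the olfactory windows, or 8.57% (1.804 to 23.1). By construction 10.0% of the whole list is strong, so both shares were near the background. The difference was 2.86 percentage points (95% interval -12.0 to 13.9; Fisher's exact test, two-sided, p = 0.748), which leaves room for a sizeable difference either way. The authors' q was under 0.05 for 64 of the 70 protocadherin peaks and for 32 of the 35 olfactory peaks, 91.4% in each, against 87.5% of the list. In number per Mb, strong peaks differed as all peaks did, at 10.8 in the protocadherin and 0.890 in the olfactory windows (ratio 12.14, 95% interval 2.91 to 71.1; exact binomial p = 0.000108).

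The fragments behind the peaks differed between the families. The recovered pileup had a median of 16.5 fragments in the protocadherin window and 13 in the olfactory windows, against 16 in the whole list. The recovered background had a median of 3.96 fragments at the protocadherin peaks and 2.03 at the olfactory peaks, against 3.11 in the list. The lowest background in the list was 1.81, and several olfactory peaks stood at this value. The lowest in the protocadherin window was 1.90. A pileup of at least 30 fragments stood behind 26 of 70 protocadherin peaks (37.1%) and 3 of 35 olfactory peaks (8.57%), against 21.9% of the list. This cut was chosen after seeing the data, and the difference was not tested. Among the olfactory windows the median background was 2.57 in 11p15.4, over only 3 peaks. It was 2.12 in 11q11-q12.1 and 2 in 1q44, over 16 peaks each. These backgrounds are known only where a peak was called, and their part in the number of peaks was not tested. Peaks covered 3.03% of the protocadherin window and 0.264% of the olfactory windows, with median widths of 248 and 183 bp. Both families arose by gene duplication, and neither the labels nor the file header say how reads mapping to several places were treated.

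**Figure D4:**
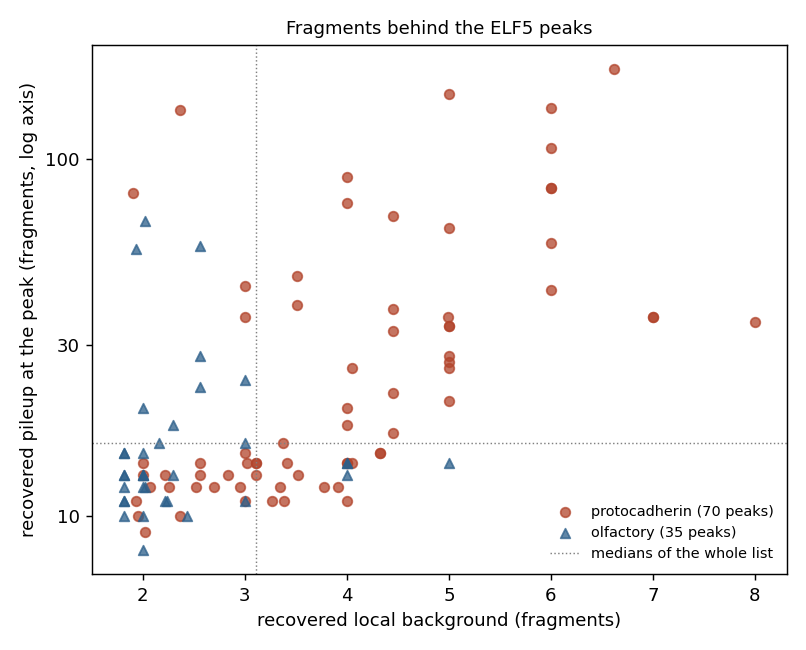
Recovered fragment pileup (vertical log axis) against recovered local background in fragments (horizontal axis) for each member peak, with dotted lines at the medians of the whole list, 16 and 3.11 fragments. Olfactory peaks (triangles) lie at backgrounds up to 5 and protocadherin peaks (circles) up to 8. Pileups are shown before the scaling that enters the fold, and backgrounds on the scale after it.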

How the data were processed

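The authors' deposited file was 1 ELF5 peak list on hg19, per its track line and the processing notes of the submitters. It holds, per the file headers, a fold (a ratio to local background), a −log10 p, a −log10 q and a score for each peak, which the authors' caller made. The score equals the whole part of 10 times −log10 p in all 115384 rows. Replicates have no columns of their own, and the track name mentions IDR and 1-3. Aligner, caller, threshold, pooling and total reads are not stated in those sources.

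The windows and lists were chosen with earlier results of these data known. Pileup and background were recovered from fold and p (Poisson tail, pseudocount 1, pileups scaled by 0.910), matching 115338 peaks and all 105 members within 0.001 of −log10 p. Pileups are given before this scaling and backgrounds on the scale after it. The same code was tested on simulated data. Fold intervals treat the pileup as a Poisson count over a fixed background. Densities were compared by the exact conditional binomial test and shares by Fisher's exact test with a Newcombe interval, adjusted by Benjamini-Hochberg over 9 tests. The tests against flanks (1 Mb on either side) and against single olfactory windows were chosen after seeing the data. Named peaks were the 10 highest by fold in the protocadherin window, with ties, the 3 highest in each olfactory window and the broadest in each. The longer promoter stretches, 250 of 300 bases, come from the gene with the most GGAA matches in its family, ties by symbol, and the CCGGAA stretches were chosen after seeing the data. Bands and chromosome lengths on hg19 came from circlize 0.4.16. Software was matplotlib 3.10.9, pandas 2.3.3, scipy 1.17.1, numpy 2.4.6 and Python 3.11.15. Sequence and gene positions of hg19 were not used here.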

Additional observations from a re-analysis of the deposited data

How the results depend on the processing

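Of 127 alternative values, 104 kept their direction and side of the threshold or stayed within the main interval. The density ratio of protocadherin to olfactory windows stayed above 1 in all 13 alternatives, from 2.64 with summits within 12500 bp joined to 12.14 for strong peaks, with exact binomial p up to 0.00218. The difference in the share of strong peaks was -2.34 points over a background found in both families, and otherwise 0.902 to 23.7, with Fisher's exact p from 0.0583 to 1. Against its flanks, the protocadherin ratio turned to 1.08 in the highest 50% of folds and to 1.19 with 12500 bp joining, neither past the threshold. The 11q11-q12.1 ratio turned to 1.09 with 12500 bp joining and was 0.139 for strong peaks (exact binomial p = 0.0504). The 1q44 ratio was 0.688 with 12500 bp joining. The 11p15.4 ratio lost the threshold at 0.385 in the highest 50% of folds, at 0 for strong peaks, at 0.348 with 1 kb joining, at 0.348 over the shared background and at 0.430 with 12500 bp joining. Stricter lists moved densities and medians by construction. In the highest 50% of folds, densities were 52.7 per Mb (protocadherin) and 5.63 (11q11-q12.1), and the protocadherin median fold was 5.69. For strong peaks, densities were 10.8, 2.11 (1q44), 0 (11p15.4) and 0.625 (11q11-q12.1), and median folds were 19.9, 19.1 and 14.8 (11q11-q12.1). With 12500 bp joining, the protocadherin density was 24.3 and its median fold 10.6, and the difference in the share of strong sites was the 23.7 points above. Each joined site kept its highest fold, so sites of many peaks had higher folds by construction. Such sites held up to 18 peaks in the protocadherin window and up to 3 in 1q44. The any-overlap membership changed no value. Leaving out replicates was not run, and no paired analysis was possible because replicates have no columns of their own. The olfactory windows rest on 3 to 16 peaks each.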

Other observations

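Several protocadherin peaks shared their fold and p exactly with another peak of the same window. Peaks at chr5:140474071-140474549 and chr5:140530283-140530549 both had a pileup of 83 fragments over a background of 6, with a fold of 10.9. Peaks at chr5:140739606-140739965 and chr5:140777351-140777707 both had 34 over 5, and those at chr5:140753433-140753910 and chr5:140792441-140792690 both had 36 over 7. Among peaks with a pileup of at least 30 fragments, 6 of 26 in the protocadherin window (23.1%) had such a partner within 740 kb, against 2.86% of 25264 in the whole list and 0 of 3 in the olfactory windows. Over peaks of any pileup the share was 18 of 70 in the protocadherin window (25.7%), 25.8% in the whole list and 5 of 35 in the olfactory windows (14.3%). The protocadherin share thus differs from the list's only under the cut at 30 fragments, which was chosen after seeing the data. The source of such pairs was not tested.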
